A study of Mus musculus with 12 samples.

Results

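The S100 proteins are a family of small calcium sensors, and the 8 members described here are S100b, S100a1, S100a4, S100a6, S100a10, S100a11, S100a13 and S100a16. They were chosen by gene name, with earlier results of these data known, and are 8 of the 55471 genes with counts. They are the members of the family that neural cultures or the cells found beside neurons are known to express. An S100 protein usually works as a dimer in which each chain carries a pair of EF-hands, the loops that hold calcium, and calcium exposes a surface that binds a partner protein. S100b is made mainly by astrocytes and by part of the oligodendrocyte lineage, is in part secreted, and is widely used as an astrocyte marker, whereas S100a1 is also found in neurons. S100a10 departs from the family rule, since it no longer binds calcium and sits in a complex with annexin A2.

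The counts came from primary hippocampal cultures of wild-type CD1 mouse embryos at embryonic day 17, prepared from litters of mixed sex. At 7 days in vitro (DIV 7) the cultures received locked nucleic acid gapmers packed in lipid nanoparticles, and RNA was collected at DIV 10. A gapmer is a short antisense oligonucleotide that directs RNase H to its target RNA. The control group of 6 libraries received a negative control gapmer and the *Neuid* KD (knockdown) group of 6 libraries received 1 gapmer against *Neuid* (Gm10419), a neuronal long non-coding RNA, and the question was how the transcriptome of neurons responds to its loss. Both groups carried gapmer and nanoparticles, and 1 gapmer sequence stands for the knockdown. The labels do not say whether the libraries of a group came from separate cultures or litters, so that p-values measure the spread between these libraries, which may be technical.

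The total number of counted reads was between 18002585 and 30914714 in the control libraries and between 11152556 and 30573480 in the knockdown libraries. Levels below are CPM, counts scaled to the total of the library after TMM correction, and the log2 fold change (log2FC) is *Neuid* KD minus control. The targeted RNA, *Neuid*, stood at 28.4 ± 2.03 CPM in control against 8.05 ± 1.13 CPM in knockdown libraries (SD over 6 libraries of a group; log2FC -1.81, adjusted p = 1.32e-10, edgeR's quasi-likelihood test with Benjamini-Hochberg adjustment). The label of the cells as neurons was checked against 16 neuronal markers, which were all tested and summed to between 7452 and 8735 CPM in control and between 7334 and 8773 CPM in knockdown libraries. RNA of astrocyte markers was present as well, and these bulk samples do not show which cells carried it. The libraries also differed in background, measured as reads on chemosensory receptor genes: 4 control and 3 knockdown libraries, called high-background here, were at 183 CPM or more on these genes, and 2 control and 3 knockdown libraries, called low-background, were at 72.3 CPM or less.

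S100b lies apart from the other 7 members. On GRCm38 (mm10) it is on the plus strand at chr10:76253853-76261159, and the others share a stretch of chromosome 3 that runs for 3053.6 kb. From one end to the other these are S100a1 at chr3:90511034-90514392 on the minus strand and, all on the plus strand, S100a13 at chr3:90514435-90524581, S100a16 at chr3:90537254-90543151, S100a4 at chr3:90603771-90606045, S100a6 at chr3:90612882-90624181, S100a11 at chr3:93520488-93526287 and S100a10 at chr3:93555080-93564643. The sequences below are shown because they stand beside the pair of genes that passed the test, S100b and S100a13. The first is the stretch of 250 bases before the RefSeq start of S100b, at chr10:76253586-76253835 of GRCm38.p6 on the plus strand, with the letters CCAAT or their reverse complement ATTGG in capitals.
S100b upstream: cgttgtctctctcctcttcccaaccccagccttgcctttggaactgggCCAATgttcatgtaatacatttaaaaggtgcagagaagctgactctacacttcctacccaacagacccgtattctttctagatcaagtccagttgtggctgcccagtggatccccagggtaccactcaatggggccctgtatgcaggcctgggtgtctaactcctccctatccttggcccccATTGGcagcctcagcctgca
The second is the whole gap of 42 bases between the annotated starts of S100a1 and S100a13, which are transcribed away from each other, at chr3:90514393-90514434 on the plus strand, with its CpG in capitals.
S100a1 to S100a13: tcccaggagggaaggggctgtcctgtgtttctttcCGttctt
Of the 8 members, 7 had a promoter in the RefSeq table of GRCm38.p6 (300 bases, 250 of them before the start). CCAAT, on either strand, began 202 and 20 bases before the start of S100b and 228 bases before that of S100a6, and stood in no other member's window, while 37.4% of all 32851 promoters of this length held it. TATAAA was in the window of S100a4 only, 31 bases before the start (13.6% of all promoters), and GGGCGG was in those of S100a11 and S100a16 (35.7% of all promoters). The 300 bases held 3 CpG in S100b, 14 in S100a13 and 11 in S100a1, against a median of 7 over all promoters. These letters were chosen with the counts known, and a match describes the sequence and no binding.

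Of the 8 members, 6 had enough reads to be tested, and 2 of them, S100b and S100a13, rose in knockdown cultures. Among all 19578 tested genes 8.72% passed at an adjusted p under 0.05, 6.31% passed in this direction, and 2.44% were also above a log2FC of 0.5, as both members were. No member passed in the lower direction (2.42% of tested genes, and 0.792% with a log2FC under -0.5), and none was lower at an unadjusted p under 0.05 in edgeR or at an adjusted p under 0.05 in DESeq2. At the threshold of 0.5, 477 genes were higher and 155 lower with TMM scaling, and 389 and 218 with upper-quartile scaling. The median log2FC of all tested genes was -0.03, and that of the 6 tested members was 0.08.

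S100b, the astrocyte calcium sensor and ligand of the receptor RAGE, showed the clearest difference of the family. It was at 1.11, 1.59 and 2.51 CPM in the lowest, median and highest control library and at 9.16, 11.0 and 12.3 CPM in the knockdown libraries. Every knockdown library was thus above every control library, a separation seen in this direction in 4.13% of tested genes and in the other in 1.57%. The values rested on 24 to 54 reads per control library and 144 to 299 reads per knockdown library. S100b rose 6.23-fold, from 1.76 ± 0.547 to 11.0 ± 1.23 CPM (SD over 6 libraries of a group; log2FC 2.64, standard error 0.160, adjusted p = 3.1e-09). In these bulk samples, more cells of a type and more S100b RNA per cell cannot be told apart.

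The rise of S100b was present at both levels of background. In high-background libraries it went from 2.01 ± 0.491 (SD, n = 4) to 10.5 ± 1.49 CPM (SD, n = 3), a log2FC of 2.39, and in low-background libraries from 1.27 ± 0.229 (SD, n = 2) to 11.4 ± 0.971 CPM (SD, n = 3), a log2FC of 3.11. The difference between these sizes was not tested. The end of S100b overlaps Dip2a, a gene on the opposite strand at chr10:76259429-76345291, but the annotated exons of the genes share 0 bases. Dip2a stood at 63.5 ± 4.20 CPM in control against 69.0 ± 5.73 CPM in knockdown libraries (SD over 6 libraries of a group; log2FC 0.12, adjusted p = 0.308) and its groups overlapped.

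**Figure D1:**
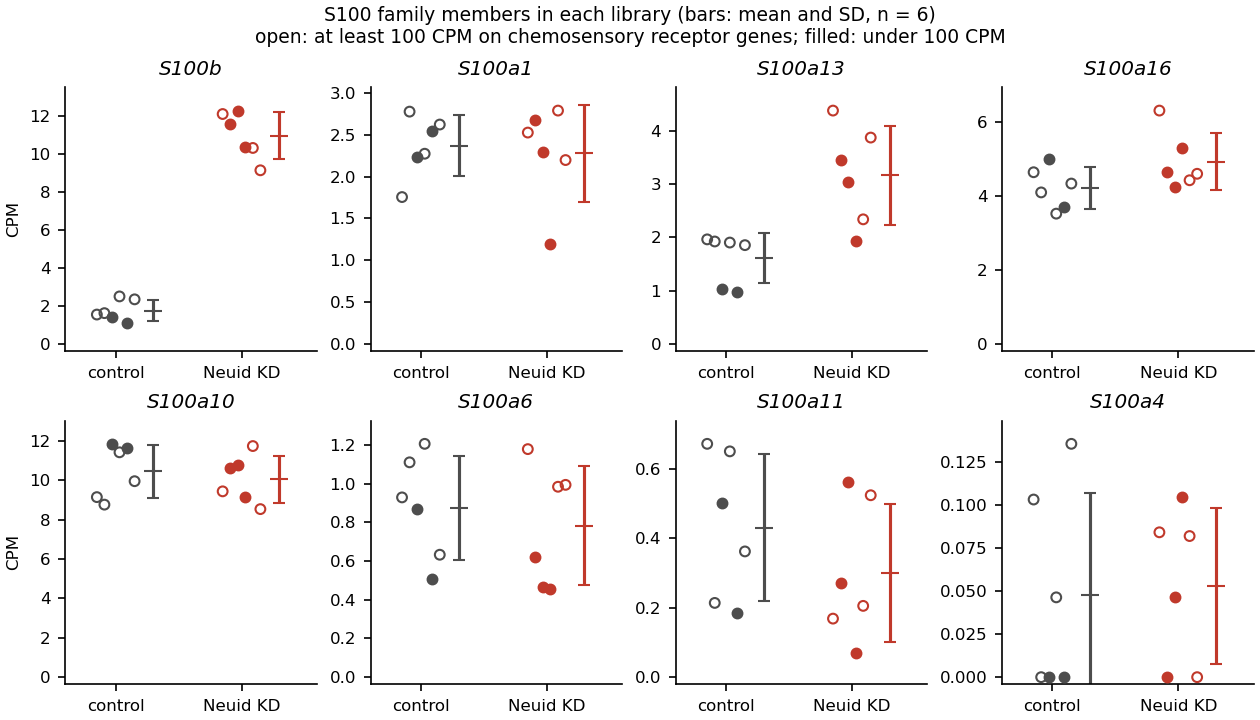
Level of each of the 8 S100 members in CPM (vertical axis, from 0) in the 6 control and 6 knockdown libraries, with 1 point per library and the mean and SD of each group beside the points. Open points are high-background libraries and filled points low-background libraries, split at 100 CPM on chemosensory receptor genes. S100b lies between 1.11 and 2.51 CPM in control and between 9.16 and 12.3 CPM in knockdown libraries, S100a13 separates but for 1 knockdown library at 1.92 CPM, and the other members overlap.

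Astrocyte markers moved in the same direction as S100b. Of 18 markers, 17 were tested and 16 rose, and their summed level was between 2007 and 2522 CPM in control and between 4070 and 4822 CPM in knockdown libraries. Gjb6, a gap junction protein of mature astrocytes, was the marker with 0 reads in some libraries (12 reads over the control and 45 over the knockdown libraries). The median log2FC of the tested markers was 1.31, with the gap junction protein Gja1 at 2.27 (adjusted p = 2.97e-13), the water channel Aqp4 at 2.10 (adjusted p = 4.54e-11) and the folate enzyme Aldh1l1 at 1.31 (adjusted p = 9.46e-12). All 17 were below the log2FC of S100b. Per 1000 CPM of summed astrocyte markers, S100b stood at 0.771 ± 0.261 CPM in control and 2.43 ± 0.348 CPM in knockdown libraries (SD over 6 libraries of a group). The ranges of this ratio, 0.454 to 1.11 and 1.95 to 2.98, did not overlap. Its size depends on the make-up of the marker sum. The largest part of that sum was Slc1a2, whose mean went from 1185 to 1834 CPM with knockdown, a 1.55-fold rise. Single markers that passed rose between 1.39-fold (Sox9) and 4.83-fold (Gja1), against 6.23-fold for S100b. Ntsr2 was 1.33-fold higher in knockdown libraries but did not pass (log2FC 0.41, adjusted p = 0.159), and its groups overlapped. Of all tested genes 1 had a larger log2FC than S100b: Igfbp2, an insulin-like growth factor binding protein, named after its value was seen, at 2.81 (adjusted p = 6.76e-14).

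S100b is also used by cells of the oligodendrocyte lineage. Of 10 markers of oligodendrocyte precursors 4 rose, with Olig2 from 10.5 ± 1.33 to 33.6 ± 1.93 CPM (log2FC 1.67, adjusted p = 8.82e-11) and Olig1 from 78.2 ± 8.49 to 216 ± 11.7 CPM (log2FC 1.47, adjusted p = 1.29e-10; SD over 6 libraries of a group). Both transcription factors act early in this lineage, and Olig2 is also found in part of the astrocytes. Lhfpl3 (log2FC 0.54, adjusted p = 0.0499) and Vcan (0.31, adjusted p = 0.00493) rose as well, with overlapping groups. Over all tested genes 6.31% passed in this direction. Pdgfra (log2FC 0.44, adjusted p = 0.223), Cspg4 (0.16, adjusted p = 0.63), Sox10 (0.09, adjusted p = 0.954) and Gpr17 (-0.77, adjusted p = 0.791), which mark precursors and their later stages, did not pass. Neu4 and C1ql1 did not pass either. The summed level of the precursor markers, of which Olig1 was the largest part, was 143 to 162 CPM in control and 303 to 343 CPM in knockdown libraries, and their median log2FC was 0.23. Of the 6 tested markers of myelinating oligodendrocytes, Mbp, a protein of compact myelin, fell from 8.11 ± 1.12 to 5.14 ± 0.813 CPM (log2FC -0.66, adjusted p = 9.73e-04), and none rose in edgeR's fit, also at an unadjusted p, or in DESeq2, whereas 1 did with an added factor for unwanted variation. The part of either cell type in the level of S100b was not tested.

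S100a13, a copper-binding member that takes part in the release of the growth factor FGF1 and of interleukin 1 alpha from cells, was the second member to pass. It was at 0.971, 1.88 and 1.96 CPM in the lowest, median and highest control library and at 1.92, 3.25 and 4.38 CPM in the knockdown libraries. The groups overlapped by a single library, since knockdown replicate 4 at 1.92 CPM lay just under control replicate 1 at 1.96 CPM. The counts were low, with 21 to 45 reads per control library and 52 to 89 reads per knockdown library. S100a13 rose 1.97-fold, from 1.61 ± 0.470 to 3.17 ± 0.927 CPM (SD over 6 libraries of a group; log2FC 0.97, standard error 0.257, adjusted p = 0.0232).

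This call depended on which libraries entered and on how background was treated. The adjusted p was 0.0582 without knockdown replicate 1, 0.0617 without replicate 2 and 0.0766 without replicate 6, with log2FC values of 0.82, 0.93 and 0.87. The level of S100a13 also went with background in the controls, at 1.91 ± 0.0450 CPM in the 4 high-background libraries and 1.00 ± 0.0443 CPM in the other 2 (SD). Within the high-background libraries of both groups the log2FC was 0.88 (adjusted p = 0.12), and within the low-background libraries it was 1.44 (adjusted p = 0.00387). In the knockdown group the classes overlapped, at 2.34 to 4.38 CPM in high-background and 1.92 to 3.45 CPM in low-background libraries. With background as a covariate S100a13 was past the threshold (log2FC 1.05, adjusted p = 1.26e-04), as it was with 1 factor for unwanted variation in edgeR (1.07, adjusted p = 1.03e-04) and in DESeq2 (1.05, adjusted p = 5.88e-06).

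S100a1 begins 42 bases from S100a13 on the other strand, regulates calcium handling through the ryanodine receptor, and binds synapsin in nerve endings. It did not pass the test. It was at 1.76, 2.41 and 2.78 CPM in the lowest, median and highest control library and at 1.19, 2.41 and 2.79 CPM in the knockdown libraries, so that the ranges nearly coincided (log2FC -0.06, standard error 0.219, adjusted p = 0.931). The low end of the knockdown range was replicate 4 alone, the same library that was lowest for S100a13. Without it the log2FC of S100a1 was 0.07. The kit marks strand, but the strand setting of the counting is not given in the sources used here, and reads of opposite strands where transcripts of these neighbours meet may not have been kept apart.

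S100a10, also called p11, pairs with annexin A2 and helps to bring ion channels and serotonin receptors to the cell surface. It had the most reads of the family in control libraries, and its groups overlapped over nearly their whole ranges. The lowest, median and highest values were 8.76, 10.7 and 11.8 CPM in control and 8.53, 10.0 and 11.7 CPM in knockdown libraries (log2FC -0.06, standard error 0.0963, adjusted p = 0.85). S100a16, a widely expressed member, was at 3.53, 4.22 and 5.00 CPM in control and at 4.26, 4.63 and 6.31 CPM in knockdown libraries. The upper end of its knockdown range was replicate 1, and the groups overlapped (log2FC 0.21, standard error 0.129, adjusted p = 0.437).

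S100a6, S100a11 and S100a4 are typical of fibroblasts and other dividing or motile cells, and they had the fewest reads. S100a6, or calcyclin, was at 0.509, 0.898 and 1.21 CPM in the lowest, median and highest control library and at 0.455, 0.803 and 1.18 CPM in the knockdown libraries (log2FC -0.17, standard error 0.405, adjusted p = 0.891). In the knockdown group its 3 lowest libraries were the 3 low-background ones, at 0.455 to 0.621 CPM, and the other 3 were at 0.984 to 1.18 CPM, whereas in control the classes overlapped, at 0.509 to 0.867 CPM in low-background and 0.633 to 1.21 CPM in high-background libraries. S100a11, a partner of annexin A1, had 59 reads over the control and 38 over the knockdown libraries (0.430 ± 0.211 and 0.30 ± 0.199 CPM; SD over 6 libraries of a group). S100a4, which binds non-muscle myosin, had 6 and 7 reads, with 0 reads in 3 control and 2 knockdown libraries. Neither of these 2 genes was kept by the filter on low counts, and a difference between the groups was not detectable at this depth. S100a4 shares 302 of its 584 exonic bases with Gm42674 on the same strand, which had 0 reads in all 12 libraries, and reads in the shared stretch may not have been assigned to either gene.

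**Figure D2:**
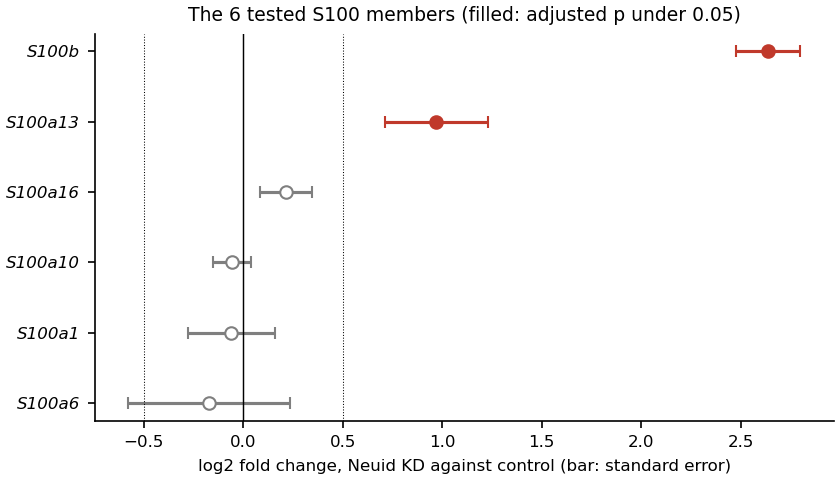
Log2 fold change of the 6 tested S100 members, *Neuid* KD against control (horizontal axis), over 6 libraries per group. Bars are standard errors derived from the F statistic of edgeR's test. Filled points passed an adjusted p of 0.05 and dotted lines mark log2 fold changes of -0.5 and 0.5. S100b at 2.64 and S100a13 at 0.97 lie to the right of the line, and the other 4 lie between -0.17 and 0.21.

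Markers of other cell types did not rise as those of astrocytes did. Of 13 tested fibroblast and mural cell markers none rose, at an adjusted or an unadjusted p in edgeR or in DESeq2, though 1 did with an added factor for unwanted variation. Fn1, the gene of fibronectin, fell from 60.8 ± 5.11 to 43.8 ± 8.11 CPM (SD over 6 libraries of a group; log2FC -0.46, adjusted p = 0.00522). The summed level of the list was 243 to 264 CPM in control and 189 to 221 CPM in knockdown libraries. Most of this sum came from Thy1 and Fn1, so that it says little about the rest of the list. The mean of Thy1 went from 131 to 118 CPM with knockdown and did not pass (log2FC -0.16, adjusted p = 0.0946). Dcn, the next largest, went from 21.6 to 20.9 CPM (log2FC -0.05, adjusted p = 0.765). Microglial markers summed to 14.6 to 20.6 CPM in control and 12.7 to 19.7 CPM in knockdown libraries, endothelial markers to 7.77 to 33.8 and 7.53 to 28.9 CPM, and ependymal markers to 25.4 to 39.4 and 20.6 to 34.0 CPM. None of the 19 tested genes of these last lists passed in edgeR. At an unadjusted p under 0.05 no microglial or endothelial gene and 2 ependymal genes were lower, and DESeq2 found 1 ependymal gene lower, or 1 endothelial and 2 ependymal genes with an added factor for unwanted variation. Of the 16 neuronal markers, the filament gene Nefm rose (log2FC 0.21, adjusted p = 0.0242) and Elavl4, which encodes an RNA-binding protein, fell (log2FC -0.21, adjusted p = 0.0161).

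Because the members differ in length, their levels were compared as CPM per kb of merged exons. In control libraries the order of the means was S100a10 (8.62), S100a1 (3.41), S100a16 (2.61), S100a13 (2.25), S100b (1.19), S100a11 (0.842), S100a6 (0.641) and S100a4 (0.0814). S100a10 was above S100a1 in every control library, as the ranges of 7.22 to 9.77 and 2.53 to 4.00 did not meet, and S100a4 was below S100a6. Every other pair of neighbours overlapped in range. In knockdown libraries the order was S100a10 (8.28), S100b (7.402), S100a13 (4.43), S100a1 (3.28), S100a16 (3.05), S100a11 (0.587), S100a6 (0.573) and S100a4 (0.0907). Here S100b, at 6.17 to 8.29, overlapped S100a10, at 7.04 to 9.68, and lay just above the highest S100a13 library at 6.12. Further steps without overlap were those from S100a16 to S100a11 and from S100a6 to S100a4. With the longest transcript as gene length, S100a16 came before S100a1 and S100a6 before S100a11 in both groups.

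The make-up of the family differed between the groups, which is described here without a test. S100b held 5.99% ± 1.56 of the summed level per length in control and 26.8% ± 2.57 in knockdown libraries (SD over 6 libraries of a group), and S100a10 held 43.9% ± 5.41 and 30.0% ± 3.63. The 7 S100a members summed to 18.5 ± 0.881 and 20.3 ± 2.33 CPM per kb, with overlapping ranges of 17.6 to 19.8 and 15.9 to 22.8. The whole family summed to 19.6 ± 1.16 CPM per kb, between 18.4 and 21.5, in control and to 27.7 ± 2.79 CPM per kb, between 22.9 and 30.96, in knockdown libraries (SD over 6 libraries of a group). The log2 ratio of S100b to the S100a sum was -4.01 ± 0.403 in control and -1.45 ± 0.189 in knockdown libraries (SD over 6 libraries of a group), and its ranges did not overlap.

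**Figure D3:**
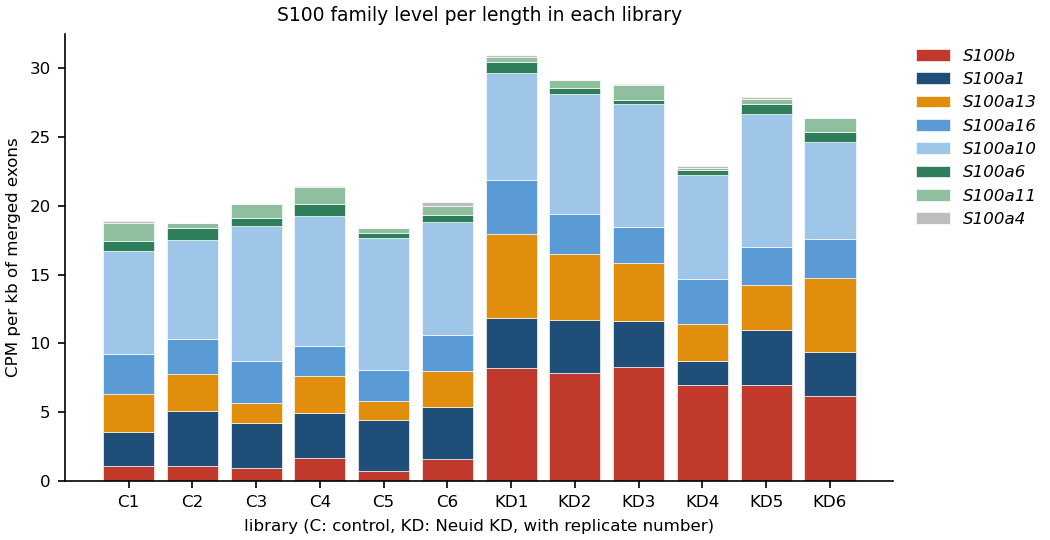
Level of the S100 family per length in each library, in CPM per kb of merged exons (vertical axis), stacked by member for the 6 control (C1 to C6) and 6 knockdown libraries (KD1 to KD6). The S100b segment is between 0.748 and 1.69 in control and between 6.17 and 8.29 in knockdown libraries, S100a10 is the largest or next largest segment in each library, and KD4 has the lowest sum of its group at 22.9.

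Most other S100 genes had few reads. Of 17 further genes, which comprise S100 proteins of skin, blood or gut, the fused S100 proteins of the skin barrier, and S100pbp, a protein that binds S100P, 15 had 0 reads in some library and 8 were tested. None passed in edgeR, also at an unadjusted p under 0.05, or in DESeq2, and with an added factor for unwanted variation 1, Tchh, passed as lower in edgeR, as it did with background as a covariate. S100pbp was the most expressed, at 26.2 ± 2.44 and 25.8 ± 1.084 CPM (SD over 6 libraries of a group; log2FC -0.02, adjusted p = 0.905). Tchh, the gene of trichohyalin, was at 15.3 ± 6.70 and 11.3 ± 3.98 CPM (SD over 6 libraries of a group; log2FC -0.46, adjusted p = 0.374). The others had log2FC values of -0.93 for S100a7a, -0.78 for Flg, -0.92 for Flg2, -0.58 for Rptn, -0.23 for Tchhl1 and -1.46 for Crnn, with adjusted p-values from 0.473 to 0.949. Rptn and Tchhl1 had positive values with background as a covariate and with an added factor for unwanted variation. In high-background libraries alone Rptn was negative (log2FC -0.24) and Tchhl1 positive (0.13). S100a2, named after its values were seen, was at 1.74 ± 0.868 CPM in the 4 high-background control libraries and at 0.0732 ± 0.0381 CPM in the other 2 (SD). In the knockdown group its background classes overlapped, at 0.314 to 2.19 CPM in high-background and 0.0468 to 0.420 CPM in low-background libraries. Of the 121 genes annotated from S100a1 to S100a10 on chromosome 3, 16 were tested and S100a13 was the only one to pass. In its direction 6.31% of all tested genes passed.

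The genes of known S100 receptors and binding partners moved in both directions. Of 43 listed, 42 were tested, and 7 rose and 4 fell, with a median log2FC of 0.06. Over all tested genes 6.31% rose and 2.42% fell. Fgf1, whose growth factor is released with the help of S100a13, was at 6.96 to 9.00 CPM in control and 17.7 to 23.7 CPM in knockdown libraries. It rose 2.77-fold without overlap of the groups (log2FC 1.46, adjusted p = 2.58e-09). Syt1, a synaptic calcium sensor that joins S100a13 and FGF1 in the same release complex, was at 531 ± 34.2 and 548 ± 36.2 CPM (SD over 6 libraries of a group; log2FC 0.04, adjusted p = 0.798).

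The best known partners of S100a10 are annexin A2 and Ahnak. Anxa2, the gene of annexin A2, rose from 9.75 ± 1.25 to 15.1 ± 1.77 CPM (SD over 6 libraries of a group; log2FC 0.63, adjusted p = 1.53e-04). Ahnak, the giant scaffold protein that binds the complex of S100a10 and annexin A2, fell from 19.0 ± 3.502 to 5.86 ± 2.15 CPM (SD over 6 libraries of a group; log2FC -1.73, adjusted p = 7.25e-06). In neither gene did the groups overlap. Among the other genes of this list that S100a10 is known to bind or serve, the serotonin receptor Htr4 rose (log2FC 0.32, adjusted p = 0.0447), whereas the serotonin receptor Htr1b (-0.36, adjusted p = 0.744), the potassium channel Kcnk3 (-0.24, adjusted p = 0.164), the calcium channel Trpv6 (-0.91, adjusted p = 0.713) and Plat, the gene of tissue plasminogen activator (0.13, adjusted p = 0.406), did not pass. Ctsb, the gene of cathepsin B and also on the partner list, rose (log2FC 0.28, adjusted p = 6.53e-04). Its groups did not overlap, whereas those of Htr4 did. Anxa1, the partner of S100a11, had 53 and 25 reads over the groups and was not tested.

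Among the remaining genes of the partner list whose proteins S100b is known to bind or regulate, Gfap, Aldoc, Vim and Stk38 passed. Gfap, the astrocyte filament protein whose assembly S100b can inhibit, rose from 140 ± 8.22 to 210 ± 5.58 CPM (log2FC 0.59, adjusted p = 1.31e-07), and Aldoc, a glycolytic enzyme of astrocytes, rose from 121 ± 6.17 to 169 ± 12.5 CPM (log2FC 0.47, adjusted p = 1.14e-05; SD over 6 libraries of a group). Both genes are also on the list of astrocyte markers. Vim, the filament protein of immature astrocytes and mesenchymal cells, fell from 555 ± 29.1 to 332 ± 8.63 CPM (SD over 6 libraries of a group; log2FC -0.74, adjusted p = 3.09e-09). Stk38, a protein kinase, rose by a smaller amount (log2FC 0.19, adjusted p = 0.0096). Gap43, Mapt, Trp53, Mdm2, Capza1 and Pgm1, whose proteins also bind S100b, did not pass, with log2FC values from -0.15 to 0.13 and adjusted p-values from 0.286 to 0.978. Ager, which encodes the receptor RAGE, was at 0.903 ± 0.455 and 0.602 ± 0.404 CPM (SD over 6 libraries of a group; log2FC -0.60, adjusted p = 0.703). The other genes among the largest changes were Bnip3, a mitochondrial protein induced by low oxygen, and Ppfibp1, or liprin beta 1, a partner of S100a4, which fell by 0.57 (adjusted p = 0.00398) and by 0.38 (adjusted p = 1.07e-04) on the log2 scale.

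**Figure D4:**
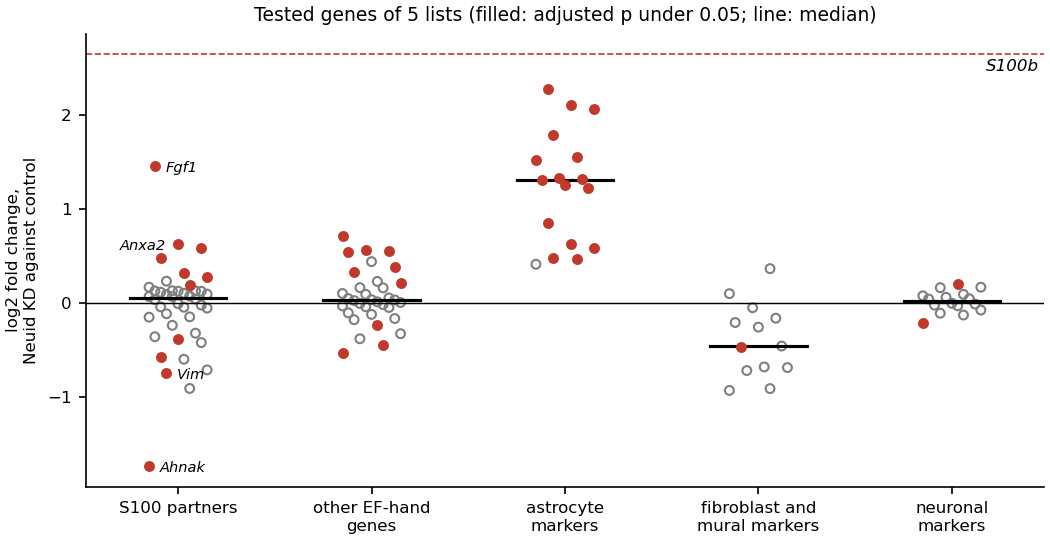
Log2 fold change, *Neuid* KD against control (vertical axis), of the tested genes of 5 lists, with 1 point per gene and a line at the median of each list. Filled points passed an adjusted p of 0.05, and the dashed line marks S100b at 2.64. Astrocyte markers centre on 1.31 and all lie below S100b, while S100 partners, other EF-hand genes and neuronal markers centre on 0.06, 0.03 and 0.02 and fibroblast and mural markers on -0.46.

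Other calcium-binding proteins with EF-hands served as a comparison by protein class. Of 35 listed genes 34 were tested, and 7 rose and 3 fell, where 6.31% and 2.42% of all tested genes did so. The median log2FC of the list was 0.03. The largest rises were those of Efhd1, a mitochondrial calcium sensor (log2FC 0.71, adjusted p = 0.00528), and of the neuronal calcium sensors Cabp1 (0.56, adjusted p = 2.29e-06), Hpca (0.55, adjusted p = 1.92e-05) and Kcnip3 (0.54, adjusted p = 6.21e-06). Necab3 fell by 0.53 (adjusted p = 0.00175), Sparc, a matrix protein made by several kinds of glial and vascular cells, by 0.44 (adjusted p = 2.56e-05) and Ncald by 0.23 (adjusted p = 0.00458) on the log2 scale. Necab3 (adjusted p = 0.183) and Ncald (adjusted p = 0.376) no longer passed in high-background libraries alone. Ncald also did not pass with no filter on low counts (adjusted p = 0.50). Efhd1 did not pass in low-background libraries alone (log2FC 0.52, adjusted p = 0.206). The groups did not overlap in 7 genes of the list that were higher and 3 that were lower in *Neuid* KD. Over all tested genes 4.13% and 1.57% separated in these directions. The highest log2FC of the list, that of Efhd1, was below those of S100b and S100a13.

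Likeness of pattern over the 12 libraries was described with Pearson's r of log2 CPM among the 15205 genes whose mean reached 1 CPM. The libraries share their group and their background, so that r is a description. The 5 genes most like S100b were Ttyh2 (0.980), Timp4 (0.979), Astn2 (0.979), Aldh1l1 (0.978) and Rftn2 (0.978), and each was higher in knockdown libraries, with log2FC values between 0.97 and 2.04. After the mean of each group was removed the closest were Sst (0.887), 1700048O20Rik (0.869), Acads (0.855), B230369F24Rik (0.848) and Rmnd1 (0.848), so that none of the first 5 was among them. For S100a6 the closest were Cps1 (0.969), Dcdc5 (0.934), Gucy1b2 (0.920), Gm30075 (0.915) and Tmem156 (0.906) over the 12 libraries, and Cps1 (0.969), Entpd1 (0.942), Dcdc5 (0.940), Slc12a7 (0.933) and Sema3b (0.929) within groups.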

How the data were processed

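RNA-seq was done on 12 libraries (6 control, 6 *Neuid* KD) made with a stranded total RNA kit. The authors aligned reads to mm10 with STAR and deposited raw counts per gene, made with featureCounts and not normalized. The strand setting and the annotation release are not given in the sources used here. Symbols for 55230 of 55471 genes, and exon lengths, came from GENCODE on GRCm38. Promoter sequences came from RefSeq (GRCm38.p6). Protein sequences were not analysed here.

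Counts were filtered with filterByExpr (19578 genes kept), scaled with TMM and tested with edgeR's quasi-likelihood test (edgeR 4.0.16, R 4.3.3), with Benjamini-Hochberg adjustment over all tested genes. A gene passed at an adjusted p under 0.05 and was called at an absolute log2 fold change above 0.5 as well. Standard errors were derived from this test, as the absolute log2 fold change divided by the square root of its F statistic. Alternatives were DESeq2 (1.42.0), which the authors used with RUVseq, a within-group factor for unwanted variation (RUVs type), background as a covariate or 2 background classes split at 100 CPM on 2014 chemosensory receptor genes, other scalings and filters, thinning, the replicate block and leaving out each library. Same-numbered libraries did not all deviate together (r from -0.637 to 0.774 over the 6 numbers). Those of numbers 1, 3 and 6 shared a background class, with r of 0.774, 0.751 and 0.0037. For the other numbers the classes differed and r was negative, so that this check cannot tell a shared culture from shared background. No 2 libraries of the same group agreed within sampling noise.

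The members, the lists of partners, EF-hand genes and cell type markers, and the tests were chosen with earlier results of these data known. Named genes are all members and genes that overlap them, every other tested S100 gene, the 4 largest changes past the test in each direction among partners and among EF-hand genes, Anxa1, Anxa2, Ahnak and Ager, and the 5 genes most like S100b and S100a6. Markers of other cell types, Syt1 and further partner genes are named beside the results they touch.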

Additional observations from a re-analysis of the deposited data

Results flagged for a closer look

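In 74 sets of 6 libraries (the levels of single genes and the family sums, in each group), 3 held 1 library apart from the other 5 by Dixon's criterion, and chance alone sets apart about 1 in 20. S100a1 in *Neuid* KD replicate 4 was at 1.19 CPM, against 2.198 to 2.79 CPM in the other *Neuid* KD libraries. The S100a sum of the same library was 15.9 CPM per kb, against 20.2 to 22.8 in the others. Dip2a, the neighbour of S100b, was at 58.3 CPM in *Neuid* KD replicate 1, the library with the fewest reads, against 67.8 to 73.4 CPM.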

How the results depend on the processing

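S100b kept its direction and its call under all 24 alternatives (log2FC 2.39 to 3.11, and 2.55 to 2.76 with each library left out). S100a13 kept its direction but not its call: the log2FC was 0.99 with no filter on low counts (adjusted p = 0.0558) and 0.88 in high-background libraries (adjusted p = 0.12), and it was 0.82 to 1.083 with each library left out, where the call was lost without *Neuid* KD replicate 1, 2 or 6. The call was past the threshold with background as a covariate (1.05) and with 1 RUVs-type factor. In the 5 cases of a lost call 1 member was called in place of 2. These fits had fewer libraries or more tested genes. Other fits with fewer libraries kept the call, among them that of the low-background libraries alone (log2FC 1.44, adjusted p = 0.00387). The reason for the lost calls was not tested.

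Members and other S100 genes that passed no test changed sign in places. In high-background libraries the log2FC was 0.095 for S100a1, 0.12 for S100a6, 0.034 for S100a10 and 0.13 for Tchhl1. With 1 RUVs-type factor it was 0.25 (DESeq2) and 0.24 (edgeR) for Rptn and 0.45 and 0.44 for Tchhl1, and with background as a covariate it was 0.12 and 0.33. With each library left out, it ranged from -0.16 to 0.071 for S100a1 (the highest without *Neuid* KD replicate 4), from -0.060 to 0.032 for S100pbp (the highest without control replicate 3) and from -1.15 to 0.067 for Tchhl1. Of 32 named genes, 26 showed no such change.

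Genes called higher numbered 797 at a log2FC above 0.3, 1235 with no fold-change threshold and 414 to 475 with each library left out. Genes called lower numbered 328 and 473 at these thresholds, 254 in DESeq2, 330 and 282 with 1 RUVs-type factor in DESeq2 and edgeR, 300 with background as a covariate and 123 to 269 with each library left out, the highest without *Neuid* KD replicate 1. The share of S100b per length was 4.22% in control and 20.6% in *Neuid* KD with the longest transcript as gene length, and its log2 ratio to the S100a sum differed by 3.12 in low-background libraries. Whether replicate numbers pair the libraries could not be told from their likeness. With the replicate block, 474 genes were called higher and 167 lower, and S100b (2.66) and S100a13 (0.98, adjusted p = 0.0176) stayed called.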
